A study of Mus musculus with 22 samples.

Results

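The zinc finger genes numbered Zfp900 to Zfp999 were followed in mouse E14 embryonic stem cells exposed to compounds that act on chromatin. Members were chosen by their symbol (Zfp9 and 2 further digits) and by reaching a value of 10 in 2 or more of the 22 libraries. The table held 61 genes with such a symbol among 18487, and all 61 passed, among 17275 genes of the table that passed the same rule. The rule left no member outside it and none near it, because each of the 61 genes was at 10 or above in all 22 libraries. The lowest value was 19, for Zfp935 in a library of DZNep, followed by 28 for Zfp973 in the same library.

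E14 is an established mouse embryonic stem cell line, and all 22 libraries came from it, with no genetic change named in the labels. There were 11 groups of 2 libraries, numbered 1 and 2 in the labels. The groups were NC, which named no compound and was the reference, and Bromosporine, Chaetocin, CPTH2, DZNep, Garcinol, IOX1, MS023, OICR, UNC0379 and Valproate. The labels gave no dose, exposure time or vehicle, and did not say whether 2 libraries of a group came from separate cultures, so that p-values measure only the spread between these libraries. CPTH2 and Garcinol inhibit enzymes that acetylate histones, Valproate those that remove acetyl groups, and Bromosporine blocks the bromodomains that read them. Chaetocin and UNC0379 inhibit histone lysine methyltransferases, DZNep interferes with methyl transfer from S-adenosylmethionine, MS023 inhibits arginine methyltransferases, and IOX1 inhibits oxygenases that include histone demethylases. What OICR is was not stated.

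Most genes of this family encode KRAB zinc finger proteins. Their tandem C2H2 fingers bind DNA, often inside transposable elements, and their KRAB domain recruits the corepressor Trim28, which brings the H3K9 methyltransferase Setdb1 and heterochromatin proteins. The genes lie in tandem arrays that grew by duplication, and in mouse embryonic stem cells the pathway is known for silencing endogenous retroviruses.

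In the GENCODE M21 annotation of GRCm38 (mm10), 60 of the 61 genes were protein coding, and Zfp939 was a transcribed pseudogene. The longest coding transcript of 54 genes held a KRAB signature. Zfp934, Zfp945, Zfp950, Zfp956, Zfp972 and Zfp974 held none. The number of C2H2 fingers had a median of 11 over the coding genes. It reached 21 in Zfp974 and was 0 in Zfp935 and Zfp972, whose longest coding transcripts encode proteins of 150 and 139 residues. Of the 61 genes, 41 fell into 5 clusters of at least 3 members, each member less than 1 Mb from the next. The largest held 16 genes on chromosome 4 (chr4:145510759-147848366), followed by 10 on chromosome 17 (chr17:21567008-22867134), 8 on chromosome 2 (chr2:175372436-178078476), 4 on chromosome 7 (chr7:42579783-43192109) and 3 on chromosome 8 (chr8:69209038-69749970).

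The kinship of the chromosome 4 genes is visible before their start sites. The stretches shown are the 150 bases before RefSeq start sites (GRCm38.p6), read in the direction of the gene. They are printed as examples of that kinship. Between the lowest and highest of the 22 libraries these genes differed from 1.65-fold (Zfp982) to 15.3-fold (Zfp981). Whether the sequences go with the levels was not tested. The capitals mark TATTGGGCG, the longest run of bases held by the largest number of these genes.

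Zfp981 (chr4:146514770-146514919, plus strand): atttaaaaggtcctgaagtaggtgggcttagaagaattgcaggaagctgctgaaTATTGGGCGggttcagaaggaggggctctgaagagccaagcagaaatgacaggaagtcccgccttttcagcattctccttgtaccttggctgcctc

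Zfp980 (chr4:145670547-145670696, plus strand): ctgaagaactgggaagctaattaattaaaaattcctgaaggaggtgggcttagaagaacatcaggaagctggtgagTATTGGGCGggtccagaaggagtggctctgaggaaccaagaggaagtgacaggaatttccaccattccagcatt

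Zfp979 (chr4:147642509-147642658, minus strand): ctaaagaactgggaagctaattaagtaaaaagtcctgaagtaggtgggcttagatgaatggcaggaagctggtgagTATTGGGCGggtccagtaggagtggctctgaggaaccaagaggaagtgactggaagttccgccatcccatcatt

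Zfp984 (chr4:147809789-147809938, minus strand): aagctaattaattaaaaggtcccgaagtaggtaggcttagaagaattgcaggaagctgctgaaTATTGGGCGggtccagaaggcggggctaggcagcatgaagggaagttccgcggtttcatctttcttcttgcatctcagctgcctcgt

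Zfp987 (chr4:146097162-146097311, plus strand): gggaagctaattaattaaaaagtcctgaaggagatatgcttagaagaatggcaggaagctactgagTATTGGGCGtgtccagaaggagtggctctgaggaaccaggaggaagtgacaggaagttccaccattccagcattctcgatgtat

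Zfp982 (chr4:147492267-147492416, plus strand): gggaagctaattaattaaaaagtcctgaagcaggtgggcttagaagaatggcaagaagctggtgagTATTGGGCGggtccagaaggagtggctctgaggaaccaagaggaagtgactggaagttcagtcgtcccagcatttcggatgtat

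The sequences of Zfp979 and Zfp980 were 90.7% identical without gaps, those of Zfp979 and Zfp982 93.6%, and those of Zfp981 and Zfp987 81.9%, each at the best of shifts of up to 20 bases. The run of Zfp981 lies more than 20 bases from that of Zfp979 or Zfp980, so that those pairs were not lined up and came out at 35.7% and 36.6%. Zfp982 has 3 RefSeq start sites, and only the one shown holds the run. Sequences before the other 2 were 33.6% and 31.9% identical to that of Zfp979. RefSeq entries were found for 52 of the 61 genes (60 entries), and for 10 of the 16 on chromosome 4. The run stood in 8 of these 10 genes, also before Zfp985 and Zfp988, and it ended 38 to 87 bases before the start site. Zfp933 and Zfp993 did not hold it. It holds the reverse complement of CCAAT and, in the 7 copies followed by GG, overlaps GGGCGG. On either strand it was found in 0.0974% of the 32851 promoter stretches of the same length (32), in 10 of the 60 entries of the members (with Zfp947 and Zfp994 on chromosome 17), and in neighbours on chromosome 4 that are not members (Zfp600, Zfp534, Rex2 and Gm13212). It also stood before genes that are neither members nor in that region, among them Ankrd50, Dnajc4, Tango2 and Herc2. CCAAT alone, on either strand, stood in 71.7% of the members' entries and 24.5% of all, and GGGCGG in 31.7% and 28.6%. As the run was searched for in these promoters, its presence there is a description and no test.

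Duplication also limits how well single genes can be told apart. The share of 31-base stretches of the longest transcript that also occur in transcripts of other genes had a median of 37.0% over the 61 genes and ran from 0.335% for Zfp961 to 100% for Zfp935, Zfp965 and Zfp968. It was under 10% in 17 genes and over 90% in 10. In the chromosome 4 cluster it ranged from 10.5% (Zfp933) to 96.5% (Zfp987), with a median of 78.5%. A value of such a gene can hold reads of its relatives, and the named genes with high shares below are uncertain for that reason.

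The cells carried the markers of their label. The summed value of 10 embryonic stem cell genes, among them Pou5f1, Sox2 and Nanog, was between 209156 and 307233 in the 22 libraries. That of 7 fibroblast genes lay between 27 and 1874, with Dcn and Lum at 0 in both NC libraries, and those of endoderm, mesoderm and trophoblast genes did not exceed 508. The neural list reached 6458. The values are normalized counts scaled so that each library has a nearly identical distribution, with a median of 409 and a highest value of 221616 in each. The depth is therefore unknown, and in bulk RNA fewer cells with a transcript and less transcript per cell cannot be told apart.

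Levels between genes were compared per kilobase of the longest transcript. In NC the mean value per kilobase ranged from 13.6 for Zfp933 to 1862 for Zfp982. The 8 highest genes all lay in the chromosome 4 cluster, as did the lowest, Zfp933. Zfp982 (1862 ± 44.7 per kilobase, SD, n = 2) was followed by Zfp990 at 1835 ± 661, Zfp980 at 1126 ± 265, Zfp985 at 1048 ± 128, Zfp987 at 995 ± 128, Zfp988 at 925.0 ± 96.0, Zfp993 at 842 ± 167 and Zfp989 at 831 ± 7.09. The 2 NC libraries of neighbours in this order overlapped, except those of Zfp990 and Zfp980. Zfp960 on chromosome 17 came next at 828 ± 78.5, and its NC libraries overlapped those of Zfp989.

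The genes differed widely in how far they moved over the 22 libraries. The ratio of the highest to the lowest library had a median of 2.76, from 1.20 for Zfp946 to 15.3 for Zfp981, and it was 5 or more for 16 genes. The highest library carried number 1 for 56 of the 61 genes, and for 22 of them it was the Chaetocin library numbered 1. The lowest library carried number 2 for 55 genes, among them 21 with their minimum in Valproate, 13 in DZNep and 11 in CPTH2. These counts of highest and lowest libraries were not set against all genes, so they describe the members only.

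**Figure D1:**
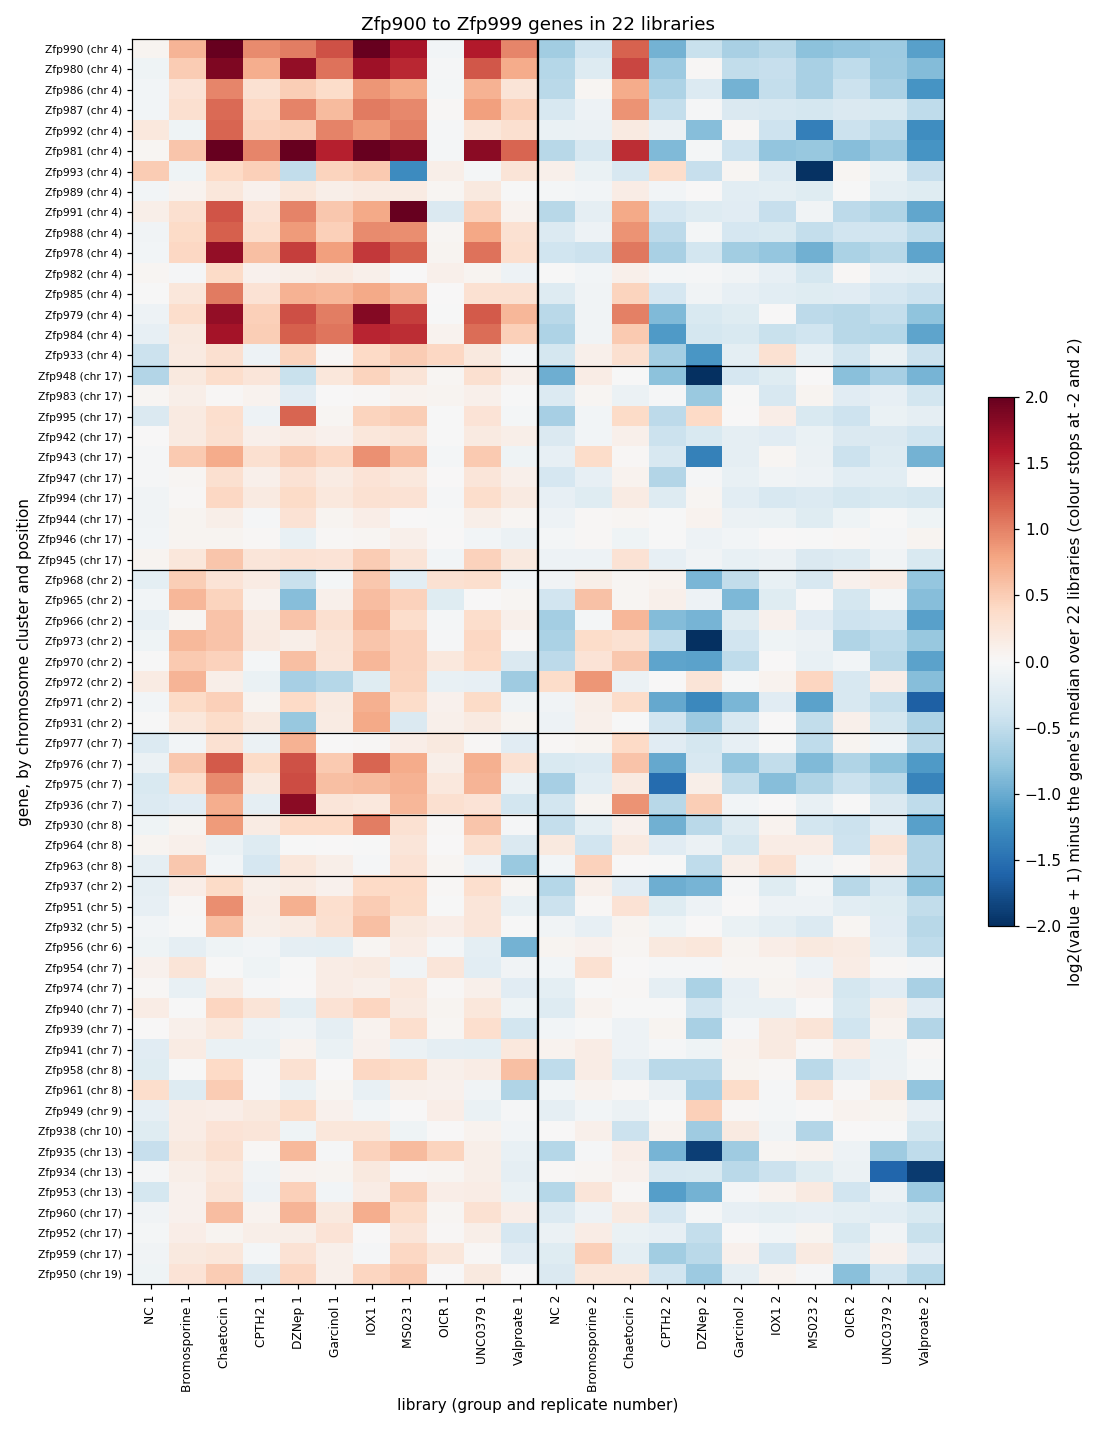
Each row is 1 of the 61 genes, grouped by chromosome cluster, and each column 1 of the 22 libraries, with the 11 libraries numbered 1 left of the thick line and the 11 numbered 2 right of it. Colour gives log2(value + 1) minus the gene's median over all libraries. Most rows of the chromosome 4 cluster are red in the libraries numbered 1 and blue in those numbered 2, while the Chaetocin columns are red for most of them on both sides.

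These genes differed between the replicate numbers. Libraries numbered 2 were compared with those numbered 1 by limma on log2(value + 1), with the 11 groups in the model, a comparison added after the values had been seen. The labels do not say what a number marks, or whether libraries of the same number were made independently of each other. The p-values of this comparison therefore measure only how steady a difference was over the 11 groups. Lower levels in number 2 were called for 8 of 61 genes (13.1%) at a Benjamini-Hochberg adjusted p under 0.05 and a fold over 2, against 1.95% of all 17275 genes. No member was called higher, where 361 of all genes were. At an adjusted p under 0.05 alone, 49 genes (80.3%) were lower and 1 was higher. Of all genes, 3937 (22.8%) were lower and 5157 higher, and of 291 other numbered Zfp genes 120 were lower and 55 higher. The level was lower in number 2 in each of the 11 groups for 30 genes (49.2%). This held for 15.8% of the other numbered Zfp genes and 8.75% of all genes. The median difference was -0.40 on the log2 scale for the members, -0.10 for 291 other numbered Zfp genes and 0.03 for all genes. Of those 291, 8 were called lower and 2 higher.

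Of the 8 genes called lower in number 2, 6 lie in the chromosome 4 cluster and 2 in that of chromosome 7. Zfp981, a KRAB gene with 7 fingers, had values of 522 in NC, 744 in Bromosporine, 3449 in Chaetocin, 997 in CPTH2, 2041 in DZNep, 1504 in Garcinol, 2114 in IOX1, 1882 in MS023, 496 in OICR, 1780 in UNC0379 and 1139 in Valproate in the libraries numbered 1. In those numbered 2 they were, in the same order, 347, 407, 1413, 275, 494, 383, 294, 300, 282, 309 and 225. Every group was lower in number 2, and apart from Chaetocin the libraries numbered 2 lay between 225 and 494, all below those numbered 1. The difference was -1.80 (SE 0.213, limma adjusted p 4.12e-05, n = 11 groups), the largest among the members.

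Zfp990, which encodes 13 fingers and is the member with the highest single value (32076), had a lowest, median and highest value of 6540, 13821 and 32076 in number 1 and of 3195, 4163 and 15363 in number 2. The difference was -1.67 (SE 0.186, limma adjusted p 2.90e-05). In number 2 every library but that of Chaetocin lay below all libraries numbered 1. Zfp980, also with 13 fingers, ran from 5263 to 20275 with a median of 11831 in number 1 and from 3065 to 14099 with a median of 3924 in number 2, a difference of -1.35 (SE 0.180, limma adjusted p 8.59e-05). Of its 31-base stretches 85.0% occur elsewhere, most of them in its neighbour Zfp600. Sharing was lower for Zfp979, at 32.1%, and its difference was -1.21 (SE 0.154, limma adjusted p 6.60e-05), with medians of 1825 and 641. The other 2 called genes of the cluster, Zfp978 and Zfp984, differed by -1.32 and -1.28. Sharing was 84.8% for Zfp978, 73.5% for Zfp984, 60.9% for Zfp981 and 50.5% for Zfp990.

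The chromosome 7 genes Zfp976 and Zfp975, with 18 and 14 fingers, had medians of 459 and 564 in number 1 and of 206 and 255 in number 2. Their differences were -1.18 (SE 0.136, limma adjusted p 3.53e-05) and -1.05 (SE 0.116, limma adjusted p 2.80e-05). Both were lower in number 2 in 11 of 11 groups. Of the 31-base stretches of Zfp976 38.8% occur in other genes, and of those of Zfp975 62.4%. Zfp936 and Zfp977 of the same cluster differed by -0.34 and -0.19.

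Within the chromosome 4 cluster the difference was uneven. All 16 genes were lower in number 2 at an adjusted p under 0.05 (limma), 13 of them in each of the 11 groups, with a median of -0.91. Zfp982, whose upstream sequence is 93.6% identical to that of Zfp979 at 1 of its 3 start sites, had medians of 2928 and 2653 and differed by -0.17 (SE 0.0354, limma adjusted p 0.00149). Zfp989, with 15 fingers, differed by -0.21 and Zfp987, with 14, by -0.80. The remaining clusters had medians of -0.36 on chromosome 17 (9 of 10 lower at an adjusted p under 0.05), -0.50 on chromosome 2 (6 of 8) and -0.11 on chromosome 8 (1 of 3), and the 20 genes outside the clusters -0.26 (14 of 20). Zfp956, a gene on chromosome 6 without a KRAB signature, was higher in number 2 in 11 of 11 groups, with medians of 359 and 405 and a difference of 0.20 (SE 0.0474, limma adjusted p 0.00307). It was the only one of the 4 members with a positive difference that had an adjusted p under 0.05. The others were Zfp972 (0.19), Zfp941 (0.085) and Zfp963 (0.0038).

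**Figure D2:**
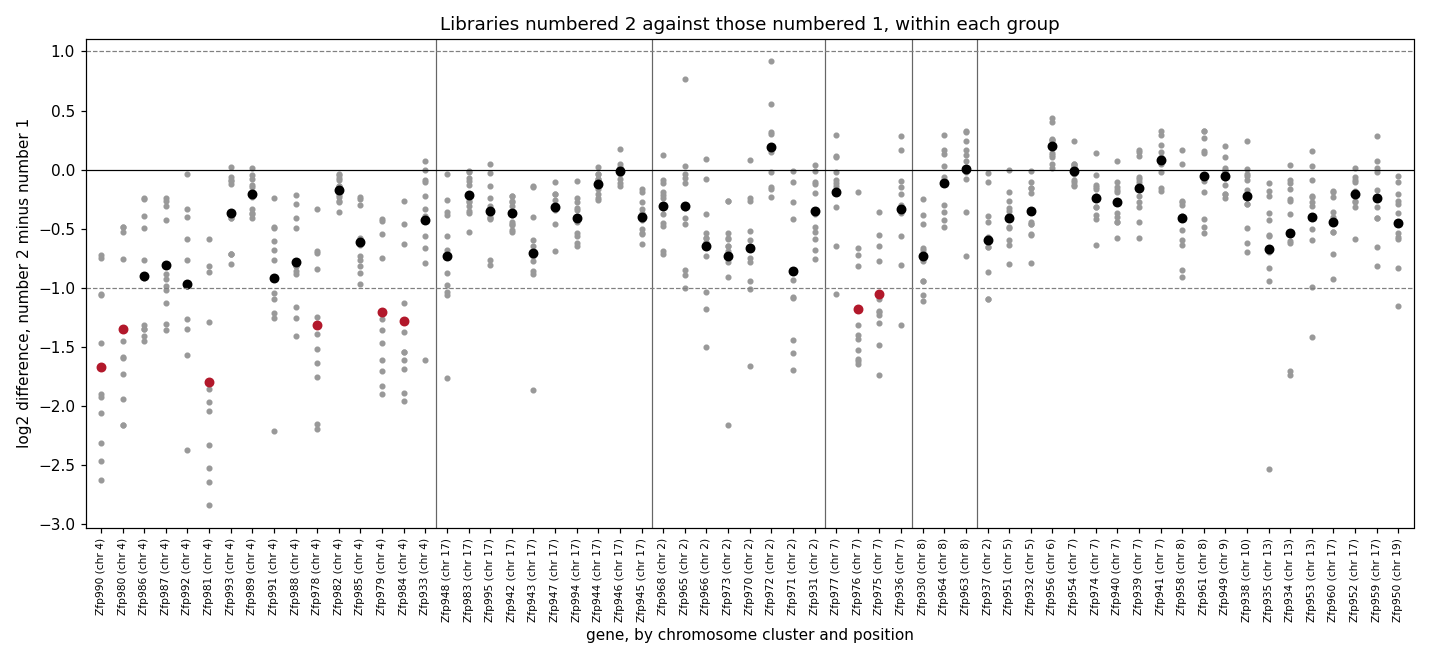
For each of the 61 genes, small grey points give the log2 difference of the library numbered 2 minus that numbered 1 in each of the 11 groups, and the large point the fitted mean, red where called. Dashed lines mark a fold of 2, and vertical lines separate the clusters on chromosomes 4, 17, 2, 7 and 8. The red points lie in the chromosome 4 cluster (6 genes) and the chromosome 7 cluster (2 genes).

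Summed over the 16 genes of the chromosome 4 cluster, the value in number 1 was between 1.30 and 3.36 times that in number 2, with a median over the groups of 2.30. The ratio was 1.30 in NC, 1.32 in OICR, 1.45 in Bromosporine and 1.61 in Chaetocin, and it exceeded 2 in the other 7 groups. In number 1 the sums ran from 33269 (OICR) and 33364 (NC) to 85601 (IOX1) and 97806 (Chaetocin). In number 2 they ran only from 20419 (Valproate) to 29308 (Bromosporine), apart from 60683 with Chaetocin. The groups thus spread in number 1 and lay close together in number 2. With 1 library for each group and number, whether a compound acts differently in the 2 numbers could not be tested. The 45 other members summed to 1.08 to 1.44 times as much in number 1 as in number 2.

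Genes of the region that are not members by symbol, among them related zinc finger genes, moved too, but not all in the same direction. Of the 88 genes annotated between the ends of the cluster, 31 that are not members were tested. In number 2, 11 of these were lower in all 11 groups and 9 were called lower, against 8.75% and 1.95% of all genes. Those called include the zinc finger genes Zfp600 (-1.81, limma adjusted p 8.16e-05) and Rex2 (-1.96, limma adjusted p 8.34e-05). Zfp600 holds 72.3% of the 31-base stretches of Zfp980. The rest of those called were processed pseudogenes or long intergenic noncoding RNAs, with low medians of 16 to 38.5 over the libraries. Zfp534, not called, differed by -0.77. Other genes of the region were higher in number 2, also not called. These were Gm13169 (0.58, limma adjusted p 0.000507), Gm13233 (0.55, limma adjusted p 0.00351), Gm13231 (0.54, limma adjusted p 0.0226) and Gm20707 (0.43, limma adjusted p 0.000358). Each was lower in number 2 in only 1 of the 11 groups. No embryonic stem cell marker of the 10 was called between the numbers. Among the other markers, Krt7 was called lower in number 2 (-1.74), and Tubb3 (1.32), Mixl1 (1.01), Zscan4c (1.26) and Zscan4f (1.64) were called higher. The summed value of the 6 genes of the 2-cell-like state was 5 to 302 in number 1 and 9 to 774 in number 2. The summed trophoblast genes lay between 69 and 356 in number 1 and between 23 and 323 in number 2, the neural genes between 2390 and 4286 and between 3805 and 6458. The part of these in the difference was not tested.

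**Figure D3:**
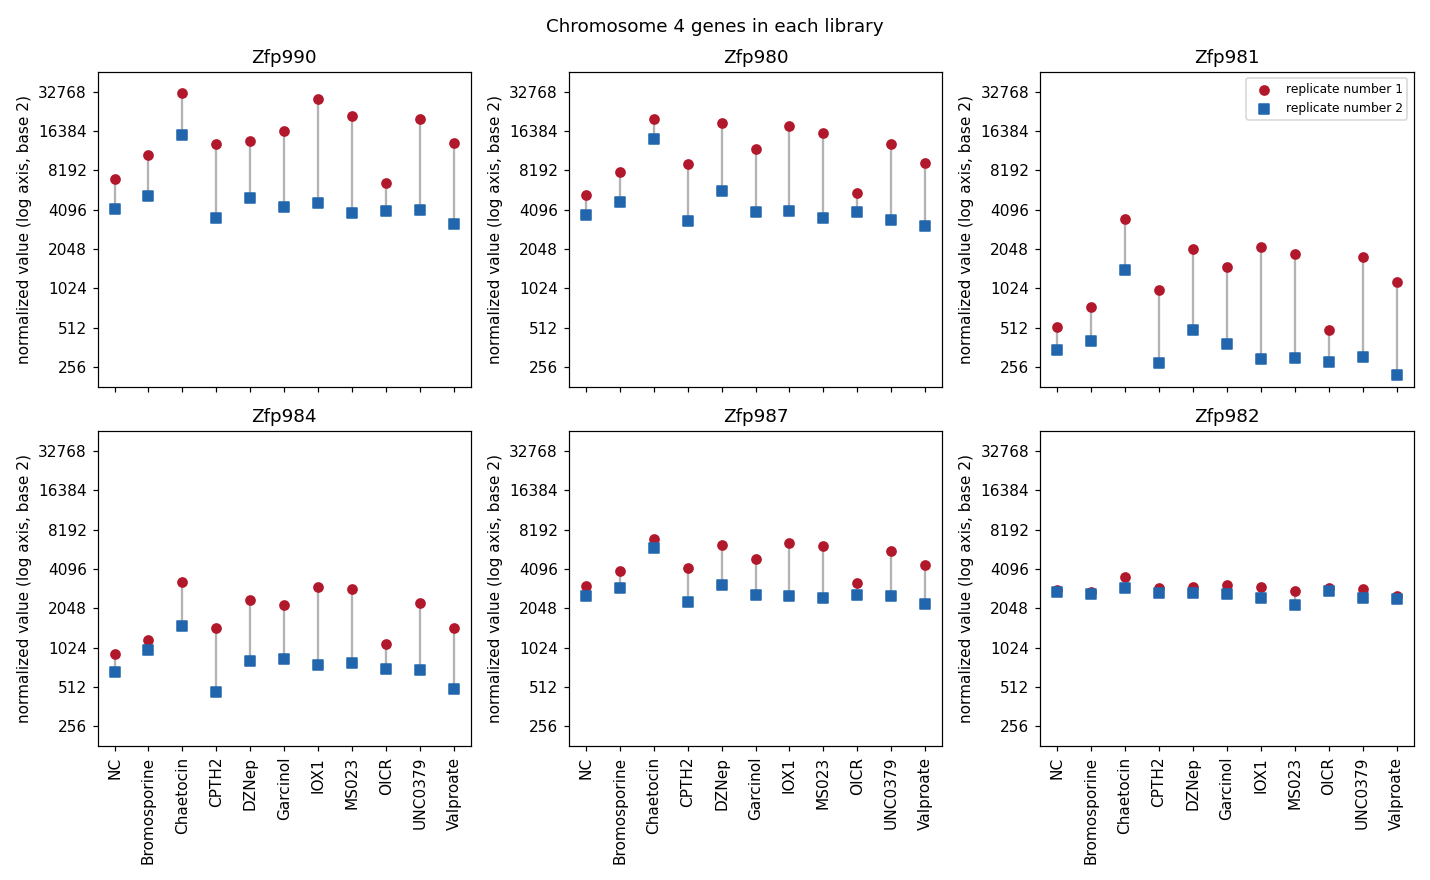
Values of 6 chromosome 4 genes in each of the 11 groups on a log axis, with the library numbered 1 as a red circle and that numbered 2 as a blue square, joined by a line. Zfp990, Zfp980, Zfp981 and Zfp984 span more than a 5-fold range, with Chaetocin highest in both numbers, while Zfp982 stays between 2160 and 3565.

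The comparison the groups were made for, each compound against NC, called few of these genes. All 10 comparisons share the 2 NC libraries. By limma, 4 changes of 4 genes were called at an adjusted p under 0.05 and a fold over 2. DZNep raised 2 of 61 members (3.28%), where 11.4% of all genes were called in either direction. MS023 lowered 1 (1.64%), where 0.973% of all genes were called. Valproate lowered 1 (1.64%), against 5.28% of all genes. No member was called with Bromosporine (3.34% of all genes called), Chaetocin (0.0174%), CPTH2 (0.00579%), Garcinol (0.00579%), IOX1 (0.116%), OICR (0.388%) or UNC0379 (0%). At an unadjusted p under 0.05 limma gave 2 members for Bromosporine, 4 for Chaetocin, 1 for IOX1 and 0 for CPTH2, Garcinol, OICR and UNC0379. Of all 17275 genes, it gave 3281 for Bromosporine, 815 for Chaetocin and 2148 for IOX1. For CPTH2, Garcinol, OICR and UNC0379 it gave 163, 625, 1843 and 1051 of all genes. With the replicate number as a block, 4 members were called with DZNep (15.1% of all genes) and 2 with MS023 (2.8%), and none with these 7 compounds. At an unadjusted p under 0.05 the block gave 31 members for Chaetocin, 15 for IOX1, 10 for Bromosporine, 5 for Garcinol, 2 for UNC0379 and 1 each for CPTH2 and OICR. All genes were not counted at that threshold with the block, so these counts cannot be set against a background. The called members' shares were near or below those of all genes.

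Zfp936, a chromosome 7 KRAB gene with 11 fingers, was at 519 and 485 in NC, against 2180 and 878 with DZNep. Both DZNep libraries lay above both NC libraries, and they differed from each other by more than those of any other group. The log2 change was 1.46 (SE 0.354, limma adjusted p 0.00889). Without the DZNep library numbered 1 it was 0.81 and not called (limma adjusted p 0.0954). With Chaetocin the same gene was at 1040 and 1165, a change of 1.13 that was not called (limma adjusted p 0.803). The other groups lay between 426 and 992.

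Zfp995, on chromosome 17 with 9 fingers, was at 124 and 96 in NC, against 343 and 202 with DZNep, a change of 1.26 (SE 0.301, limma adjusted p 0.00813). NC numbered 2 was its lowest library and DZNep numbered 1 its highest, and all other libraries but NC fell between 106 and 216. Leaving out DZNep numbered 1 gave 0.88 (limma adjusted p 0.0845) and leaving out NC numbered 2 gave 1.08 (limma adjusted p 0.0626), neither of them called. Of its 31-base stretches, 42.0% occur in other genes, most often in its neighbour Zfp947.

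Zfp993, on chromosome 4, encodes only 2 matched fingers. It was at 1224 and 923 in NC, against 359 and 219 with MS023, the lowest values of all libraries. The next lowest was 616, with DZNep. The change was -1.92 (SE 0.316, limma adjusted p 0.00897), and within the numbers it was -1.77 and -2.07. The call was lost without NC numbered 1 (-1.72, limma adjusted p 0.0981) and without MS023 numbered 2 (-1.56, limma adjusted p 0.0814). Other genes hold 92.0% of its 31-base stretches, and Zfp991 alone holds 87.1%. Zfp991 stood at 578 and 361 in NC, against 2352 and 507 with MS023, a change of 1.26 that was called only with the replicate block (limma adjusted p 0.0373).

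Zfp972, on chromosome 2, has no matched finger and no KRAB signature. It was at 112 and 129 in NC, against 61 and 55 with Valproate, its lowest values in any group. The change was -1.04 (SE 0.279, limma adjusted p 0.030). It lay at the fold threshold, and a pseudocount of 10 brought it to -0.94, which was not called. It was also not called when any 1 of the 4 libraries was left out, with limma adjusted p from 0.0924 to 0.159.

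**Figure D4:**
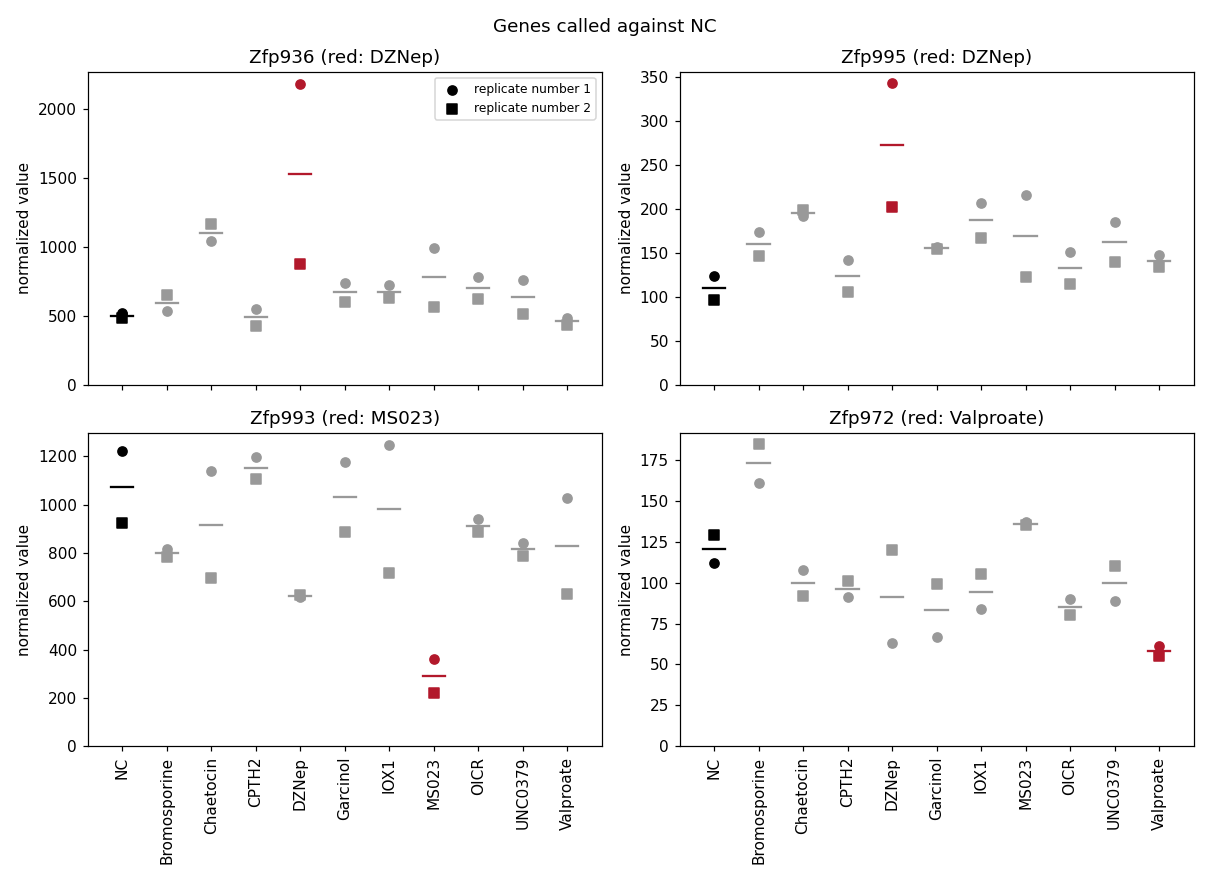
Normalized values of the 4 genes called against NC in each library, with circles for number 1, squares for number 2 and bars for the mean of the 2 libraries. NC is black and the compound with the call is red. Zfp993 with MS023 and Zfp972 with Valproate are the lowest groups, and Zfp936 and Zfp995 are highest with DZNep, where the 2 libraries lie far apart.

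Other cell type markers moved with some of these compounds. With DZNep, Col1a1 and Thy1 of the fibroblast list were called higher, and the summed list stood at 1612 and 1874 against 528 and 1368 in NC. Its Dcn and Lum were at 0 in both groups. The embryonic stem cell list stood at 307233 and 296802 against 248087 and 240917, with Zfp42 and Utf1 called higher. Eomes of the mesoderm list was called higher, and Gata4 of the endoderm list and Nes and Sox1 of the neural list lower. The summed trophoblast list was 356 and 323 against 90 and 39 in NC, with no gene called. With Valproate the fibroblast list stood at 1554 and 1422, with Lum and Thy1 called higher, and with MS023 at 1067 and 105, with none called. Sox1 was called lower with both, and Utf1 higher with Valproate. The part of these in the changes of Zfp936, Zfp995, Zfp972 and Zfp993 was not tested.

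Chaetocin gave the highest levels of the family, although no member was called. Both Chaetocin libraries lay above both NC libraries for 42 of 61 genes (68.9%), and both lay below for 1. The share above was 32.0% for the 291 other numbered Zfp genes and 14% for all genes. The median change against NC was 0.47 on the log2 scale, from -0.27 to 2.37, against 0.12 for the 291 other numbered Zfp genes and -0.03 for all genes. This pattern was picked after the values had been seen. It is described here with no test beyond the fit.

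In number 1 Zfp981 had a value of 522 in NC and of 3449 with Chaetocin, and in number 2 of 347 and 1413, differences of 2.72 and 2.02 on the log2 scale. For Zfp990 the values were 7009 and 32076 in number 1 and 4163 and 15363 in number 2 (2.19 and 1.88). For Zfp980 they were 5263 and 20275, and 3762 and 14099 (1.95 and 1.91). In each case the Chaetocin library numbered 2 exceeded both NC libraries, including the one numbered 1. The changes in the fit were 2.37 (SE 1.25), 2.04 (SE 1.15) and 1.93 (SE 0.960), each with a limma adjusted p of 0.803. With the replicate block the same changes had limma adjusted p of 0.0561, 0.0561 and 0.0601. The lowest of a member was then 0.0397, and no member was called, where 0.203% of all genes were.

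Of the 16 chromosome 4 genes, 14 had both Chaetocin libraries above both NC libraries, and the median change of the cluster was 1.16 in number 1 and 1.20 in number 2. The exceptions were Zfp993, at 1139 and 695 against 1224 and 923 in NC, and Zfp992, at 4907 and 2478 against 2511 and 1998. The chromosome 7 cluster had median changes of 1.13 and 0.86, that of chromosome 17 0.41 and 0.36, that of chromosome 2 0.49 and 0.43, and that of chromosome 8 0.12 and 0.07. Zfp966 of the chromosome 2 cluster was at 302 and 208 in NC, against 501 and 533 with Chaetocin, though 94.1% of its 31-base stretches occur elsewhere. Members with little sharing included Zfp951 on chromosome 5 (6.92%), with 314 and 261 in NC and 673 and 431 with Chaetocin, and Zfp930 on chromosome 8 (6.50%), with 440 and 336 against 841 and 493.

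Within each number, Chaetocin was the highest of the 11 libraries for 20 genes in number 1 and 32 in number 2. It was highest in both for 18 genes (29.5%), 12 of them on chromosome 4, against 1.49% of all genes. Bromosporine was highest in both numbers for 5 members (5.57% of all genes), DZNep for 3 (12.9%), and MS023 (4.38%) and UNC0379 (0.758%) for 1 each. The members' shares with DZNep and MS023 were below those of all genes. IOX1 was highest for 12 members in number 1 and 1 in number 2. Among the 31 other genes of the chromosome 4 region, 21 had both Chaetocin libraries above both NC libraries, against 14% of all genes. They include Rex2 (2.56) and Zfp600 (2.45), neither called.

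**Figure D5:**
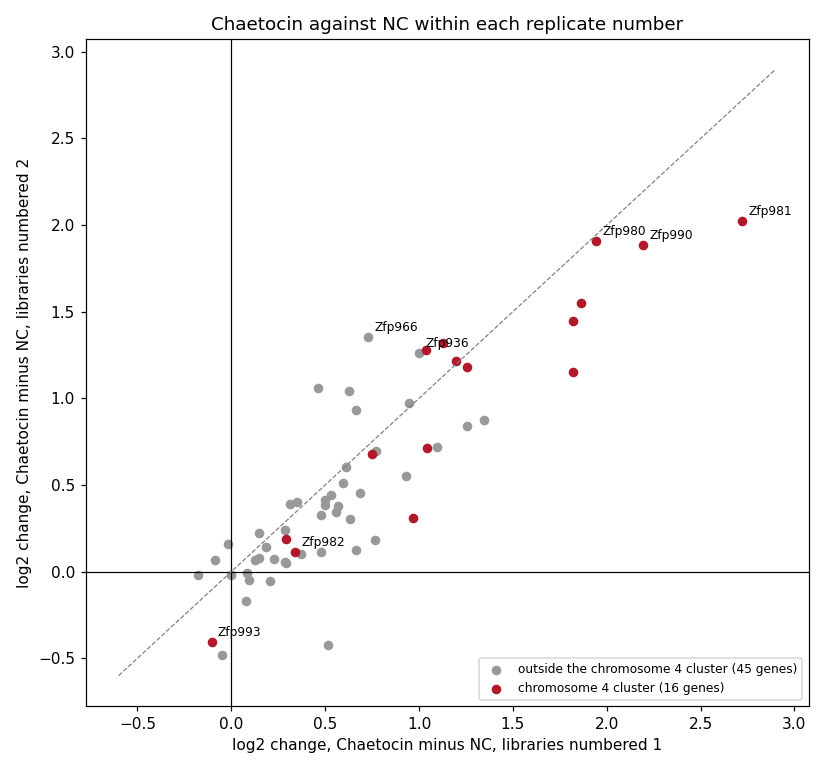
Each point is 1 of the 61 genes, placed by its log2 change from NC to Chaetocin in the libraries numbered 1 (horizontal) and numbered 2 (vertical), with the 16 chromosome 4 genes in red and equality dashed. The 2 axes share no library. Zfp981, Zfp990 and Zfp980 are farthest up and to the right, and 50 genes lie above 0 on both axes.

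The summed fibroblast list was 27 and 53 with Chaetocin against 528 and 1368 in NC, and the 2-cell-like list 23 and 92 against 201 and 169, with no marker called. The embryonic stem cell list was 267802 and 244446 against 248087 and 240917. The part of the first 2 lists in the Chaetocin values was not tested.

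For the remaining compounds the median change of the 61 genes was 0.36 with IOX1, 0.28 with Bromosporine, 0.25 with MS023, 0.20 with UNC0379, 0.18 with Garcinol, 0.06 each with CPTH2, DZNep and OICR, and -0.08 with Valproate. All-gene medians lay between -0.04 and 0.01. The other numbered Zfp genes had medians of 0.16 with IOX1, 0.20 with Bromosporine, and 0.13 each with MS023 and UNC0379. They were at 0.10 each with Garcinol and OICR, 0.07 with DZNep, -0.001 with CPTH2 and -0.12 with Valproate. Within the numbers the members' medians lay farthest apart for IOX1, 0.63 in number 1 and 0.08 in number 2. DZNep (0.42 and -0.06) and MS023 (0.46 and 0.04) followed. For Bromosporine the members' medians were 0.24 and 0.25. With Bromosporine 34 of 61 genes (55.7%) had both libraries above both NC libraries. The share was 48.1% for the other numbered Zfp genes and 26.4% for all genes. With Valproate 11 (18.0%) had both below, against 32.3% of the other numbered Zfp genes and 27.6% of all genes.

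The partners of KRAB proteins were read from a list of 20 genes of the Trim28 corepressor complex and its heterochromatin partners, of which 19 were tested. By limma 1 (5.26%) was called with DZNep, where 11.4% of all genes were, 1 with Valproate, where 5.28% were, and 0 with the other 8 compounds. With DZNep, Hdac2, a histone deacetylase, rose from 5685 and 5871 to 13597 and 10924 (1.08, SE 0.206, limma adjusted p 0.00216). With Valproate, Cbx5, which encodes heterochromatin protein HP1 alpha, fell from 17970 and 21285 to 9272 and 8042 (-1.18, SE 0.173, limma adjusted p 0.00101).

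Trim28 itself was at 75957 and 67576 in NC, at 92251 and 123367 with DZNep (0.57, limma adjusted p 0.142) and at 44793 and 67576 with Chaetocin (-0.38, limma adjusted p 0.832). Setdb1 was at 5348 and 5667 in NC, against 9922 and 9104 with DZNep, a change of 0.79 that had a limma adjusted p of 0.000692 but stayed under a fold of 2. Mta1 (-0.93, limma adjusted p 0.00722) and Cbx5 (-0.73, limma adjusted p 0.00784) fell with DZNep, also under a fold of 2. So did Hdac1 (-0.48, limma adjusted p 0.00699). Of the 19 genes, 4 (21.1%) had both DZNep libraries above both NC libraries and 6 (31.6%) had both below. For all genes the shares were 26.5% and 32.4%. With Chaetocin Setdb1 was at 5081 and 6108, a change of 0.02. Between the numbers no gene of the list reached a fold of 2. At an adjusted p under 0.05 (limma) 4 of 19 were lower in number 2, where 22.8% of all genes were. These were Cbx3 (-0.68), which encodes heterochromatin protein HP1 gamma, Morc3 (-0.43), Mta1 (-0.31) and Hdac2 (-0.24). Morc3 and Mta1 (10.5% of the list) were lower in 11 of 11 groups, against 8.75% of all genes. The 2 higher genes were Atf7ip (0.46), a partner of Setdb1, and Trim28, where 5157 of all 17275 genes were higher. The list's shares were thus near or below those of all genes. Trim28 was higher in number 2 by 0.24 (limma adjusted p 0.0486) and Setdb1 by 0.10 (limma adjusted p 0.0674).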

How the data were processed

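The data were 22 RNA-seq libraries of E14 cells, in 11 groups of 2 taken from the sample titles and treatment labels. The labels describe oligo-dT selection of messenger RNA. The submitters' processing notes name bcl2fastq, Bowtie2 2.2.5, RSEM and the build mm10. The paper's methods name none of the compounds, and it is assumed that they apply to these libraries. The deposited values are a score, read counts that the authors normalized with EDASeq at its full setting and rounded to whole numbers. This normalization sets nearly the same distribution in each library and gives genes of high rank tied values, as with Trim28. Reads that match several genes are divided among them by estimate in RSEM. A second deposited table of the authors' group means was not used. Columns without a matching sample numbered 0.

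Values were analysed as log2(value + 1), so that fold changes of low genes are understated, in R 4.3.3 with limma 3.58.1 (11 group means, all libraries, eBayes with trend, 11 residual degrees of freedom, two-sided p adjusted by Benjamini-Hochberg within each comparison over 17275 genes). Calls needed an adjusted p under 0.05 and a fold over 2. The code was tested on simulated data. Members and lists were chosen with earlier results of these data known, and the comparison of replicate numbers and the description of Chaetocin after the values had been seen. Members were named if called against NC or among the 8 highest per kilobase in NC, and the other members named were chosen after their values were seen. KRAB signatures and C2H2 fingers were matched as amino acid patterns in translated GENCODE M21 transcripts. Plots used Python 3.11.15 and matplotlib 3.10.9.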

Additional observations from a re-analysis of the deposited data

How the results depend on the processing

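For the members called, leaving out a library gave 1 to 2 calls with DZNep, 0 to 1 with MS023 and 0 to 1 with Valproate, and 0 for the other 7 compounds. These were not always the same genes. Without DZNep numbered 1 the only call was Zfp973 (-1.69), and the Valproate calls were Zfp961 without NC numbered 2 (-1.05) and Zfp934 without Valproate numbered 1 (-1.91), never Zfp972. A fit restricted to the 4 libraries of a comparison, with 2 residual degrees of freedom, called 0 members with any compound and 0 genes of the Trim28 list with DZNep or Valproate. With the replicate block, 4 members were called with DZNep, adding Zfp980 (1.21) and Zfp975 (1.20), and 2 with MS023, adding Zfp991, while 1 gene of the Trim28 list was called with IOX1. It changed no other count over the members or that list. Over all genes it called 1189 against 577 with Bromosporine, 35 against 3 with Chaetocin, 2606 against 1970 with DZNep, 217 against 20 with IOX1, 484 against 168 with MS023, 274 against 67 with OICR, 11 against 0 with UNC0379 and 1487 against 912 with Valproate. A pseudocount of 10, rescaling by median ratios and a reference made of all other groups each gave 0 members with Valproate, and that reference also 0 genes of the Trim28 list with DZNep, where it lost Zfp995 and called Zfp948 (-1.17). Without 1 library the Trim28 list had 1 to 2 calls with DZNep and 1 to 2 with Valproate. Removing the filter on low values moved no count of members or of that list. Rescaling shifted the median of all genes by -0.02 to 0.04 on the log2 scale. Setdb1 with Chaetocin (0.02) reversed to -0.076 against all other groups, and without 1 library it ranged from -0.116 to 0.150, below 0 without NC numbered 1 or Chaetocin numbered 2. The cause of these changes was not tested. The 8 members lower in number 2 numbered 8 to 9 when both libraries of any 1 group were left out, and 8 under a pseudocount of 10, no filter or rescaling. Same-numbered libraries deviated from their group means together, with correlations across genes of 0.0535 to 0.298 over 55 pairs of groups, 51 of them above 0.1. The labels do not say what the number marks, so it is not taken as a pairing.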
